A study of Mus musculus with 38 samples.

Results

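The comparison described here is that between dVenus+ and dVenus- granule cells of the dentate gyrus in mice that had explored the training context without receiving a foot shock, the no-shock (NS) group. The members were taken from the sample titles and labels, and comprise 8 of the 38 libraries of the series, 1 dVenus+ and 1 dVenus- library from each of 4 mice numbered 18 to 21. The mice were adult single-housed males on the C57BL/6J background, all carrying the *Arc*::dVenus transgene, and were exposed to the conditioning chamber and its tones with no shock given. A day after this exposure, 10 fluorescent cells and 10 neighboring non-fluorescent cells per mouse were drawn into patch pipettes, pooled by class and amplified as full-length cDNA with the SmartSeq2 method. For reference, the series also holds 24 libraries of 12 fear conditioned (FC) mice, which received the shock, and 6 libraries of 3 home-cage (HC) mice, which were not trained. All mice of these groups carry the same reporter, so that no library comes from an animal without the transgene.

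Arc is an activity-regulated gene of excitatory synapses, whose mRNA is transcribed within minutes of strong synaptic input and whose protein takes part in the removal of AMPA receptors from the membrane. In the reporter line its promoter drives a short-lived fluorescent protein, so that a green cell is one in which the *Arc* promoter was recently active. Granule cells of the dentate gyrus fire sparsely, and exploration of an unfamiliar place is by itself known to induce *Arc* in a small share of them. The dVenus+ cells of NS mice were thus selected by *Arc* promoter activity after exploration, and a higher level of *Arc* in them is the selection itself seen in the RNA.

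Of the 8187 genes that could be tested, 4 differed between dVenus+ and dVenus- cells at an adjusted p below 0.05 and an absolute log2 fold change above 1 (edgeR quasi-likelihood test with the mouse as block), which is 0.0489% of the genes (0.0366% higher and 0.0122% lower). The transcripts of *Arc*, of the nuclear noncoding RNA *Malat1* and of the small nucleolar RNA host gene *Snhg11* rose in dVenus+ cells, and that of *Shroom2*, which encodes an actin-binding regulator of cell shape, fell. On the GRCm38 assembly, *Arc* lies on chromosome 15 at 74669081 to 74672570, *Malat1* on chromosome 19 at 5795690 to 5802672, *Snhg11* on chromosome 2 at 158375713 to 158386474 and *Shroom2* on chromosome X at 152609509 to 152770788. Since the transcription factor CREB is known to act on activity-regulated genes such as *Arc*, the 250 bases before the start of the other called genes are given here, read 5′ to 3′ on the strand of each gene from the RefSeq promoter windows of GRCm38.p6. Capitals mark the core of the cAMP response element, TGACG or its reverse complement CGTCA. For *Shroom2* the first of its 4 listed starts is given.
Malat1: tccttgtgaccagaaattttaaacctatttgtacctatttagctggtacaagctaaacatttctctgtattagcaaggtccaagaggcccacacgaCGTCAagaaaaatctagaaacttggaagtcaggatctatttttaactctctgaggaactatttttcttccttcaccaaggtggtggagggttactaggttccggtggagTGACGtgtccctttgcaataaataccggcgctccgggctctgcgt
Snhg11: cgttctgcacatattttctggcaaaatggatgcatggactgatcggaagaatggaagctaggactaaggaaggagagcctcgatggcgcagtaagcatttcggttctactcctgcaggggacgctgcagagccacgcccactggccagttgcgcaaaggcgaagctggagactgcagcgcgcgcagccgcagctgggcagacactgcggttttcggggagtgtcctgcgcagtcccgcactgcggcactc
Shroom2: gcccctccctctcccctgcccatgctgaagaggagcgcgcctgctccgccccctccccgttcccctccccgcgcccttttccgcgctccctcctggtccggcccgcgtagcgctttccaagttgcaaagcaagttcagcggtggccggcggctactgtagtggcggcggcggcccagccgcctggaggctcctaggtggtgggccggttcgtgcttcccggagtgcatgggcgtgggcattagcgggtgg

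The *Malat1* window, at chr19:5802673-5802922 on the minus strand, held 2 such cores, which began 154 and 45 bases before the start. Neither the *Snhg11* window, at chr2:158375463-158375712 on the plus strand, nor the *Shroom2* window, at chrX:152769487-152769736 on the minus strand, held one, and the 3 further starts of *Shroom2* held none either. Among all 32851 windows of this length, 17.8% held at least 1 core and 1.55% held the full palindrome TGACGTCA, in which a core on each strand overlap. A full palindrome was present in the first of 2 windows of *Meg3*, another noncoding RNA described below. These matches describe letters in a window only.

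The 4 dVenus+ libraries held between 5713182 and 8470731 counts on genes and the 4 dVenus- libraries between 8415900 and 8771721. At least 1 count was found for 8916 to 10841 genes in dVenus+ and for 7419 to 10540 in dVenus- libraries, a mean difference of 820.5 genes that did not differ beyond the spread of the mice (exact sign-flip permutation test, p = 0.625). The share of reads outside annotated genes ran from 20.0% to 44.3% in dVenus+ and from 16.4% to 30.8% in dVenus- libraries, with the dVenus+ library above its partner in 3 of 4 mice (exact p = 0.25). The 45S ribosomal precursor *Rn45s* took 30.9% to 65.3% of the counts on genes in dVenus+ and 11.2% to 49.3% in dVenus- libraries, again higher in 3 of 4 mice (exact p = 0.25). The share of reads that fell on overlapping genes was lower in dVenus+ cells of all 4 mice, at a mean of 0.467% ± 0.164 against 1.10% ± 0.371 (SD, n = 4 each), which gives the smallest p that 4 mice allow in the exact test and still one above 0.05. Over the 7 library measures compared, the exact p-values adjusted after Benjamini-Hochberg ran from 0.35 to 0.75. Variation among the mice was wide (biological coefficient of variation 1.42 over all tested genes), and 59.2% of the tested genes had at most 3 counts in at least 1 of the 8 libraries. Rank correlations of log2 CPM over the tested genes ran from 0.38 to 0.437 between dVenus+ libraries, from 0.383 to 0.551 between dVenus- libraries from 0.342 to 0.43 between the 2 libraries of a mouse and from 0.299 to 0.501 between dVenus+ and dVenus- libraries of different mice. The description field of 6 of the 8 libraries names the identifier of another sample, and in 4 of them the other cell class. Titles and characteristics were used throughout, and by these the *Arc* count is higher in the dVenus+ library of every mouse.

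*Arc* stood at 734, 119.5, 126 and 403 normalized CPM, that is counts scaled to a common effective library size, in the dVenus+ libraries of mice 18, 19, 20 and 21, and at 0, 3.54, 0.139 and 0 in their dVenus- libraries. The lowest dVenus+ value thus lay far above the highest dVenus- value, and mouse 19 showed both the lowest level in green cells and the highest in their neighbors. The log2 fold change was 8.75 ± 1.44 (SE, edgeR adjusted p = 0.00184), with a mean of 346 ± 291 CPM against 0.919 ± 1.75 (SD, n = 4 each).

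*Malat1*, which is retained in the nucleus at speckles that store splicing factors, reached 32748, 46440.0, 25105 and 12197 CPM in dVenus+ cells of mice 18 to 21, against 5889, 9523, 9427 and 5837 in dVenus- cells. All 4 green libraries exceeded all 4 others, with the narrowest gap in mouse 21. This change was the smallest of the 4 called in size but the most regular, with a log2 fold change of 1.81 ± 0.25 (adjusted p = 0.000116). *Snhg11*, a neuronal host gene whose spliced product is noncoding, was found at 1626, 1306, 807 and 234 CPM in dVenus+ and at 18.7, 115, 2.99 and 59.1 in dVenus- libraries. Its ranges did not overlap either, and the rise was 4.87 ± 0.92 on the log2 scale (adjusted p = 0.0182).

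*Shroom2* was near the limit of counting in dVenus+ cells, at 0.23, 9.04, 0.173 and 1.42 CPM, whereas the dVenus- cells of the same mice gave 541, 290.5, 121 and 57.5. The transcript was thus present in every dVenus- library and above 3 counts in the dVenus+ libraries of mice 19 and 21. It fell by 6.91 ± 1.36 on the log2 scale (adjusted p = 0.0241).

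**Figure D1:**
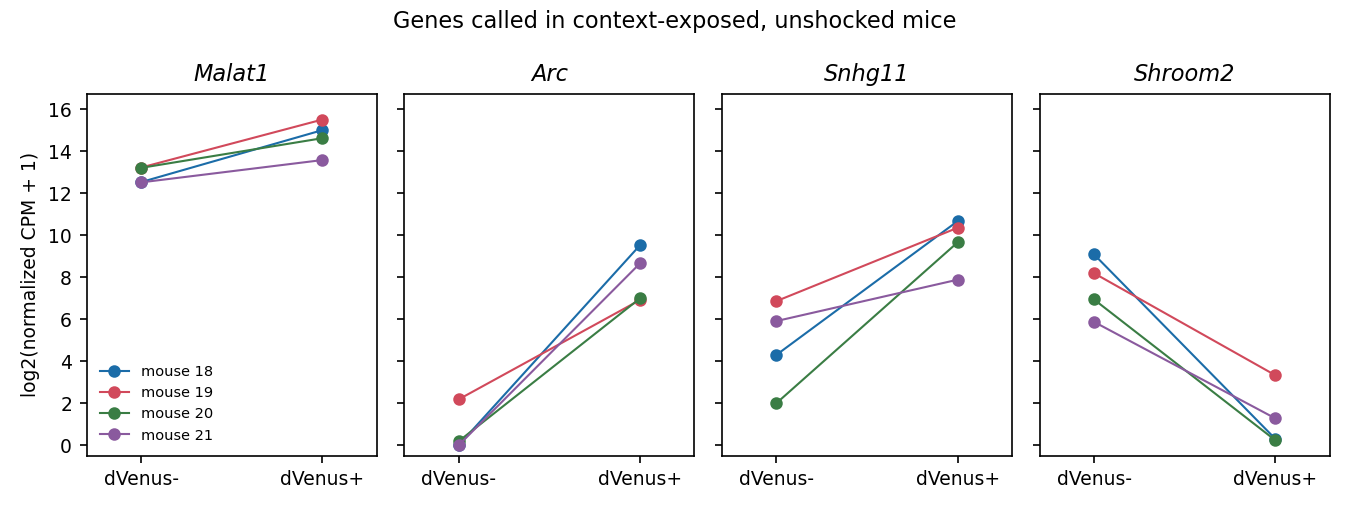
Log2 of normalized CPM plus 1 (y axis) in the dVenus- and dVenus+ library of each NS mouse (x axis) for the 4 called genes, where each line joins the libraries of 1 mouse. All 4 lines rise for *Malat1*, *Arc* and *Snhg11* and fall for *Shroom2*, and the 2 cell classes do not overlap in any panel.

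A complete separation of the cell classes was itself not rare, since 495 tested genes (6.05%, of which 3.19% higher and 2.86% lower) had no overlap between the 4 dVenus+ and the 4 dVenus- values, and 1399 (17.1%) had the same direction in 4 of 4 mice, 9.43% higher and 7.66% lower. The calls also depended on each mouse. With mouse 18, 19, 20 or 21 left out, the number of called genes was 1, 2, 0 and 1. The 1 gene called without mouse 18 was *Rn45s*, which is not among the 4 called genes. *Malat1* was still called without mouse 19 or 21 but had an adjusted p of 0.559 without mouse 18 and 0.662 without mouse 20, *Arc* was still called without mouse 19 and had 0.385, 0.791 and 0.165 without mouse 18, 20 and 21, *Snhg11* had 0.703, 0.32, 0.903 and 0.0736 and *Shroom2* 0.689, 0.32, 0.791 and 0.165 without mice 18 to 21 in turn, all with the sign kept. Over these fits the log2 fold change ran from 1.59 to 2.06 for *Malat1*, from 7.90 without mouse 21 to 12.39 without mouse 19 for *Arc*, from 3.73 without mouse 20 to 5.93 without mouse 21 for *Snhg11* and from -8.50 without mouse 19 to -5.73 without mouse 18 for *Shroom2*. The older quasi-likelihood method of edgeR called 0 genes, with 384 at an unadjusted p below 0.05, and DESeq2 called 671, among them *Arc*, *Snhg11* and *Shroom2* but not *Malat1* (DESeq2 adjusted p = 0.157). Without *Rn45s* in the counts the same 4 genes were called, with a log2 fold change of 1.81 for *Malat1* and 4.76 for *Snhg11*.

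Beyond the called genes, 710 genes (8.67%) had an unadjusted p below 0.05, of which 345 stood higher and 365 lower in dVenus+ cells. Of these, 12 had an adjusted p below 0.1, the 4 called genes included. Among genes lower in every mouse, *Dusp14*, a dual specificity phosphatase that acts on MAP kinases, gave 0.344, 1.67, 0 and 0 CPM in dVenus+ against 369.6, 132, 24.3 and 93.9 in dVenus- libraries (adjusted p = 0.0677). *Acot13*, a mitochondrial thioesterase, was detected in all dVenus- libraries at 185 to 322 CPM and at 0.608 to 18.1 in dVenus+ libraries, with a log2 fold change of -5.25 ± 1.15. *Gatc*, a subunit of the mitochondrial complex that amidates glutamyl-tRNA, had -8.03 ± 1.75, and *Gfra4*, a receptor subunit of the GDNF family, had -5.97 ± 1.34, both with an adjusted p of 0.0677. *Sae1*, a subunit of the enzyme that activates SUMO, was at no more than 0.52 CPM in any dVenus+ library and at 24.3 to 265 in dVenus- libraries (adjusted p = 0.0942). The uncharacterised transcript *2210013O21Rik* had -6.74 ± 1.53, with its highest dVenus+ value of 8.15 CPM just below its lowest dVenus- value of 8.84.

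On the higher side, *Rnft1*, a RING finger gene, stood at 158, 57.8, 72.0 and 101 CPM in dVenus+ and at 1.21, 0.147, 0 and 0 in dVenus- libraries (8.62 ± 1.92, adjusted p = 0.0677). *Nfx1*, which encodes a zinc finger transcriptional repressor, ranged from 50.8 to 162 CPM in dVenus+ and from 0 to 5.12 in dVenus- cells (6.41 ± 1.65, adjusted p = 0.199). *Tmem179*, a membrane protein gene, had 5.46 ± 1.42, with 30.0 CPM in the dVenus- library of mouse 21 above the 24.5 in the dVenus+ library of mouse 19. *Vasp*, a promoter of actin filament elongation, was counted in all 4 dVenus+ libraries at 2.86 to 9.93 CPM and in no dVenus- library, which makes its level at least 15.8-fold higher when 3 counts per library are taken as the floor.

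The late activity-regulated genes, a list of 23 genes that follow the first transcription factors after neuronal activity, lay mostly on the side of dVenus+ cells. Of the 16 members that were tested, 12 had a positive log2 fold change and 9 had an unadjusted p below 0.05 on that side, whereas 1, *Dusp14*, had one on the other. The filter of 10 counts in 4 of the 8 libraries can be met by 1 cell class alone. *Nptx2* met it in dVenus+ libraries only, with at most 8 counts in dVenus- libraries. The dVenus+ libraries of *Inhba* and *Stat3* were likewise enough to meet it, with at most 26 and 23 counts in dVenus- libraries. *Dusp14* met it in dVenus- libraries only, with at most 7 in dVenus+ libraries. The sign of such genes follows from their entry, so the counts of members by side and the median of the list depend in part on it. Over all genes tested 52.0% had a positive log2 fold change, 4.21% had such a p on the higher and 4.46% on the lower side, and none of the 16 was called. The median log2 fold change of the list was 2.95, against 0.08 for all genes tested. In every mouse its summed level was the higher one in dVenus+ cells, at 1092 to 3261 CPM against 519 to 1397. The summed level of microglial markers, described further on, was also the higher one in dVenus+ cells of all 4 mice, and that of granule cell markers the lower one, and their part in these values was not tested.

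Among the secreted factors of this list, *Bdnf*, the neurotrophin that supports synaptic strengthening, stood at 249, 164, 333 and 336 CPM in dVenus+ and at 2.01, 72.8, 17.3 and 52.5 in dVenus- libraries. The ranges did not overlap, and the log2 fold change was 3.48 ± 1.06 (adjusted p = 0.356). *Inhba*, which encodes the subunit of activin A, gave 81.6, 18.3, 87.6 and 240.2 CPM in dVenus+ cells and none in dVenus- cells apart from 3.83 in mouse 19 (7.15 ± 1.88, adjusted p = 0.201). *Nptx2*, a pentraxin that clusters AMPA receptors, stood at 34.8, 11.2, 34.0 and 67.9 CPM against at most 1.18 (7.34 ± 2.36, adjusted p = 0.396). *Penk*, the enkephalin precursor, was at 354, 94.0, 257 and 147 CPM against 0.134, 18.9, 16.4 and 25.7 (3.81 ± 1.15, adjusted p = 0.356). *Scg2*, a granin of dense-core vesicles, was at 265 to 631 CPM in dVenus+ and 123 to 252 in the dVenus- libraries of 3 mice, with 1.53 in that of mouse 20.

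Of the signaling members, *Stat3*, a cytokine-activated transcription factor, ranged from 37.7 to 132 CPM in dVenus+ and from 0 to 3.39 in dVenus- cells (6.43 ± 1.80, adjusted p = 0.267). *Rgs2* and *Rgs4*, which speed the shutdown of G proteins, were higher in the dVenus+ library of every mouse but overlapped between classes, with 2.94 ± 1.05 and 2.95 ± 1.34 on the log2 scale. *Sgk1*, a kinase of the glucocorticoid response, rested on 1 library, with 338 CPM in the dVenus+ cells of mouse 21 against 14.0, 0 and 10.8 in those of mice 18 to 20, and at most 1.40 in dVenus- cells. Of the 7 members that were too low for the test, *Kcnj2* gave 89.5 and 101 CPM in the dVenus+ libraries of mice 18 and 19 and at most 2.84 elsewhere, and *Dusp5* had no count in any library.

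**Figure D2:**
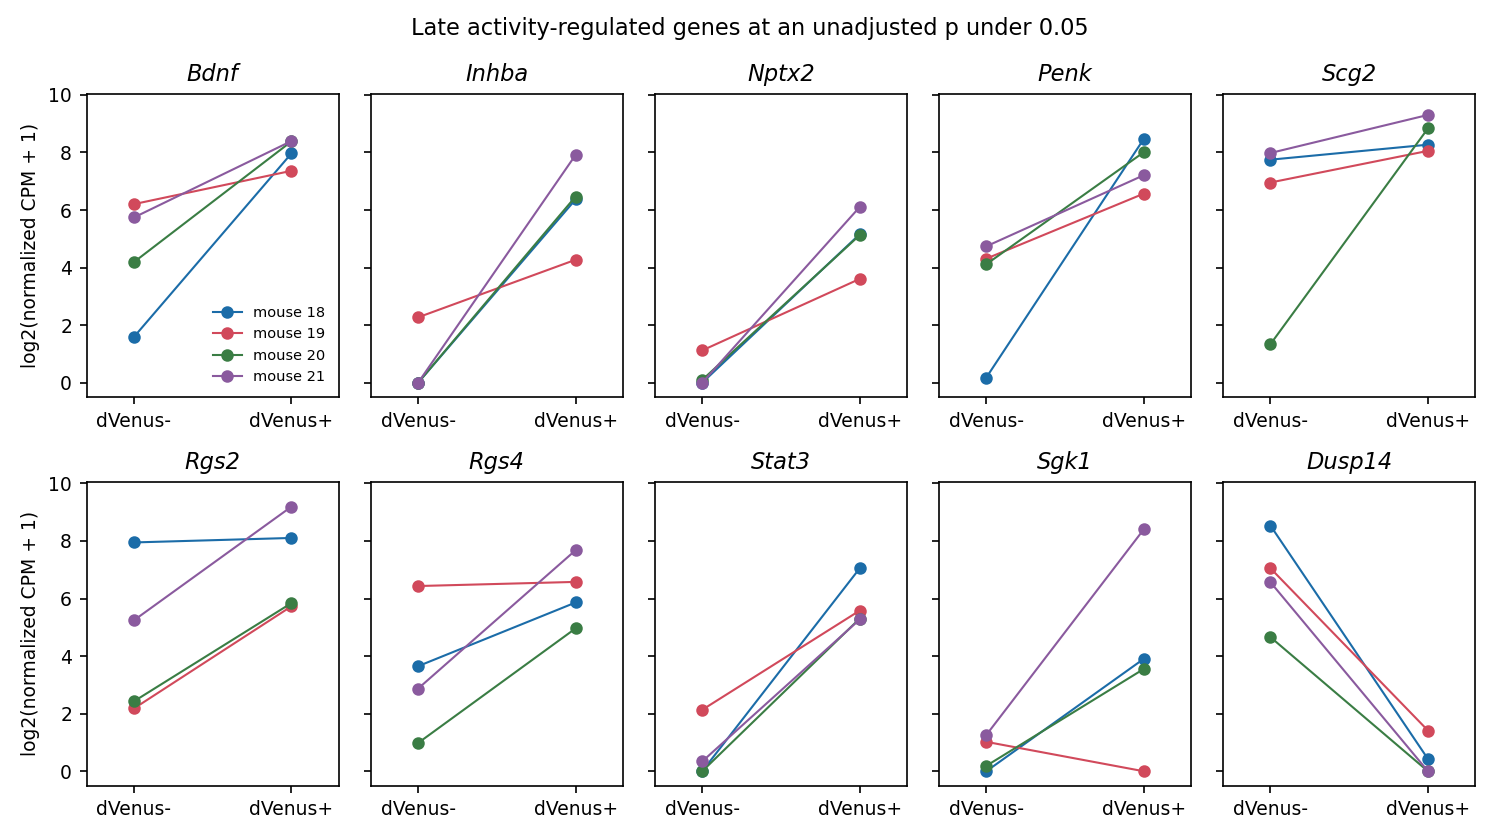
Log2 of normalized CPM plus 1 (y axis) in the dVenus- and dVenus+ library of each NS mouse (x axis) for the 10 late activity-regulated genes with an unadjusted p below 0.05, 1 line per mouse. In 8 panels every line rises, for *Sgk1* that of mouse 19 does not, and for *Dusp14* all 4 fall, from 24.3 to 369.6 CPM in dVenus- to at most 1.67 CPM in dVenus+ libraries.

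The immediate early genes, the transcription factors and effectors of the first response, lay on both sides. Of 22 genes 11 were tested, 6 with a positive and 5 with a negative log2 fold change, and *Arc* alone passed the test or an unadjusted p below 0.05. The median of the list was 0.19, and it ran from -0.08 to 1.02 with 1 mouse left out. *Fos* had at most 0.405 CPM in any dVenus+ library and 11.8 in the dVenus- library of mouse 19. *Egr1*, the zinc finger factor most used as an activity marker beside *Fos*, gave 3.67, 27.1, 14.6 and 14.2 CPM in dVenus+ and 6.17, 15.6, 18.6 and 5.98 in dVenus- cells. *Junb*, a partner of *Fos*, had 3.15 on the log2 scale and was higher in all 4 mice, and *Nr4a1*, an orphan nuclear receptor, was found at 7.46, 0, 90.2 and 90.1 CPM in dVenus+ cells and at no more than 0.147 in any dVenus- library. *Npas4*, *Egr2*, *Egr4* and *Nr4a3* had at most 4.36 CPM in any of the 8 libraries. A list of 10 members of the CREB family and its coactivators had a median of 0.14, with 4 tested genes on each side and none at an unadjusted p below 0.05.

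A further list of 22 genes leads the same comparison in the fear conditioned libraries, on which the study chose them and which come from other mice. Of its 14 members that were tested in NS mice, 11 had a positive log2 fold change and 10 were higher in 4 of 4 mice, with a median of 3.64. The count filter can be met through dVenus+ libraries alone, as it was by *Arc*, *Inhba*, *Nptx2* and *Blvrb*. The signs and the median of the tested members thus depend in part on entry. Over all genes tested, 52.0% had a positive log2 fold change and 9.43% were higher in 4 of 4 mice. An unadjusted p below 0.05 was found for 4.21% of all genes on the higher and 4.46% on the lower side. Besides *Arc*, those at an unadjusted p below 0.05 were *Inhba*, *Bdnf*, *Penk*, *Nptx2*, *Scg2* and *Blvrb* on the higher side and *Camkv* on the lower. Of these genes on the higher side, *Blvrb* alone was not already counted among the late activity-regulated genes. *Blvrb*, a biliverdin reductase, stood at 67.8, 11.7, 44.9 and 59.0 CPM in dVenus+ and at 0, 10.5, 0 and 0.598 in dVenus- cells. *Camkv*, a kinase-like protein of dendritic spines, was at 43.7, 11.4, 349.5 and 4.25 CPM against 310.1, 74.1, 220.5 and 390.1, lower in 3 of 4 mice. *Atf3*, a stress-induced member of the ATF family, was counted at 87.0 and 16.0 CPM in the dVenus+ libraries of mice 18 and 21 only, and at 0.173 or less in those of the other mice. *Sorcs3*, a sorting receptor of the synapse, gave 151, 23.8, 16.1 and 344 CPM in dVenus+ and 73.3, 2.36, 11.8 and 4.78 in dVenus- cells, and *Gadd45b* ranged from 0.238 to 97.6 against 0 to 25.1.

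Whether the dVenus effect differed with training history was tested by the interaction of cell class and group in 1 fit of all 38 libraries over 14075 genes. No gene passed an adjusted p of 0.05 between NS and HC mice or between NS and FC mice (0% of the genes in each), and 968 (6.88%) and 1152 (8.18%) had an unadjusted p below 0.05. In simulated counts at the dispersion of these data the edgeR fits recovered no changed gene, so the lack of calls does not show that the effects are alike. DESeq2 called 1329 and 1205 genes on the same counts. The 3 groups share no library, but the sample identifiers of the FC libraries in the labels begin with other numbers than those of the NS and HC libraries, which begin alike, and each cell class comparison lies within a mouse.

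Side by side, the log2 fold change of *Arc* was 8.75 ± 1.44 in NS, 8.75 ± 0.95 in FC and 8.34 ± 1.61 in HC mice. *Inhba* had 7.15 ± 1.88 in NS, 7.09 ± 0.82 in FC and 9.34 ± 2.32 in HC mice, and *Bdnf* had 3.48 ± 1.06, 2.49 ± 0.33 and 1.99 ± 1.30. *Penk* had 3.81 ± 1.15 in NS against 6.47 ± 0.74 in FC mice, a difference of -2.57 that was not called (adjusted p = 0.714). *Malat1* had 1.81 ± 0.25, 1.53 ± 0.25 and 2.66 ± 0.57 in NS, FC and HC mice. *Snhg11* had 4.87 ± 0.92 in NS against 1.59 ± 0.43 in FC and 1.71 ± 1.73 in HC mice, where the differences of 3.36 and 3.08 had adjusted p-values of 0.581 and 0.803. *Shroom2* had -6.91 ± 1.36, -3.35 ± 0.84 and -7.54 ± 2.02, and *Dusp14* -8.54 ± 1.86, -3.18 ± 0.83 and -2.14 ± 2.80. Some of the genes nearest to a call in NS mice had values close to 0 in FC mice, with 0.82 ± 0.91 for *Rnft1*, -0.15 ± 0.44 for *Nfx1*, -0.48 ± 0.51 for *Tmem179* and -0.40 ± 0.72 for *Sae1*, and these differences from FC mice had adjusted p-values of 0.3 to 0.409. In HC mice the same genes had 9.94 ± 3.64, -2.65 ± 1.80, -0.09 ± 2.60 and 3.27 ± 3.01. Other genes near a call had -1.31 ± 0.55 (*Acot13*), -1.19 ± 0.96 (*Gatc*), -1.90 ± 0.68 (*Gfra4*), -3.01 ± 0.50 (*Calb1*) and -0.07 ± 0.81 (*2210013O21Rik*) in FC mice.

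**Figure D3:**
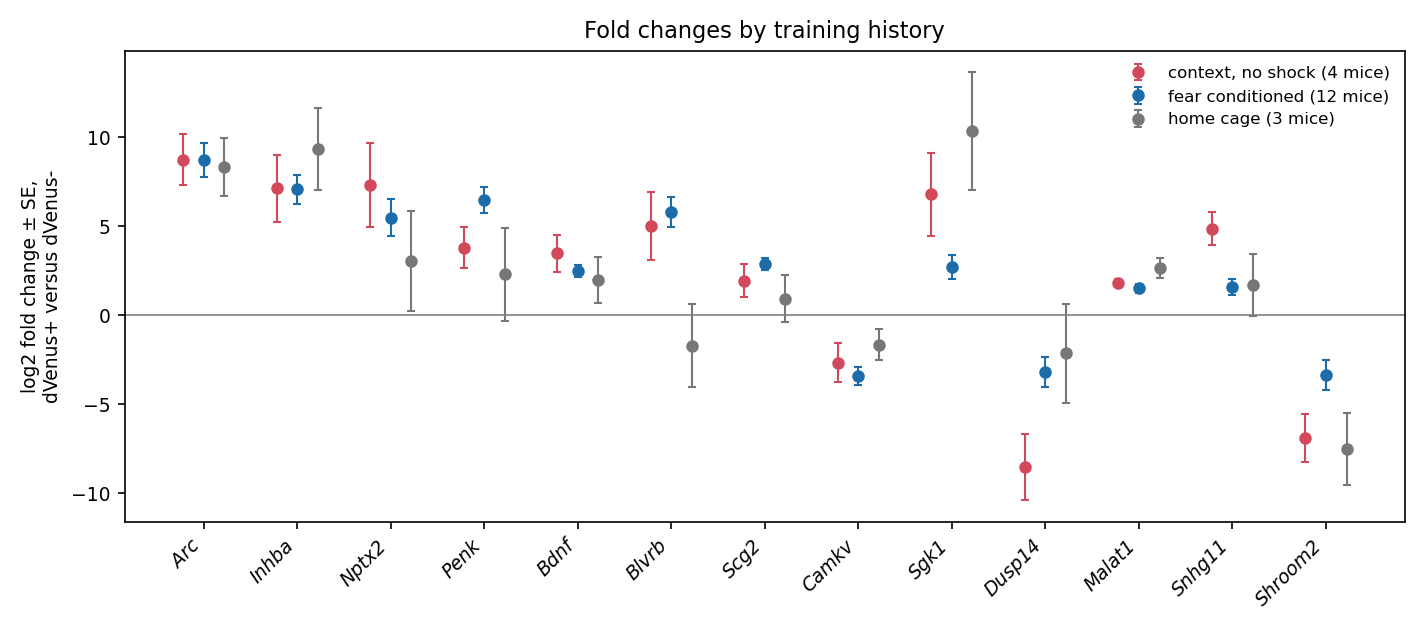
Log2 fold change of dVenus+ against dVenus- cells (y axis) for 13 genes (x axis), with the standard error of each group's own edgeR fit as bars, in NS (red), FC (blue) and HC (grey) mice. *Arc* lies at 8.75, 8.75 and 8.34, whereas *Snhg11*, at 4.87 in NS mice, lies at 1.59 in FC and 1.71 in HC mice.

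All 5 tested nuclear noncoding RNAs had a positive log2 fold change, with a median of 1.81. Next to the called *Malat1* and *Snhg11*, *Meg3*, an imprinted noncoding RNA, stood at 1736, 4184, 1162 and 618 CPM in dVenus+ and 695, 518, 139 and 317 in dVenus- cells (2.09 ± 0.55, adjusted p = 0.201). *Miat* and *Rian* had 0.18 and 0.61 with overlapping values. Both *Malat1* and *Snhg11* were known from earlier results when the list was written, and the share of reads outside genes and that of *Rn45s* were each higher in the dVenus+ library of 3 mice. The part of these shares in the levels of nuclear transcripts was not tested. The log2 ratio of *Malat1* within mice was 2.48, 2.29, 1.41 and 1.06 in mice 18 to 21, smallest in mouse 21, whose dVenus+ library had the smaller share of reads outside genes. Of the other host genes of small nucleolar RNAs, *Snhg1* had 4.11 ± 1.99 with 83.5 CPM in the dVenus+ library of mouse 21, and *Gas5* had 0.54. The 9 tested host genes had a median of 0.54.

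Of the 4 *Shroom* genes, *Shroom2* alone reached the test. *Shroom1* and *Shroom4* had no count in any library and *Shroom3* at most 3.33 CPM. Among the genes of actin and myosin, *Actb* was at 1286, 1344, 1475 and 1632 CPM in dVenus+ and at 3168, 2962, 5544 and 2838 in dVenus- cells, a log2 fold change of -1.29 ± 0.40 (adjusted p = 0.356). The classes did not overlap. *Actg1* had -1.65 ± 0.62, and *Actn4*, which crosslinks actin filaments, had 2.65 and was higher in all 4 mice. The 14 tested genes of this list were split evenly, 7 on each side, around a median of 0.12, which became -0.77 without mouse 21. The 18 tested partners of Arc at the synapse had a median of 0.08, with *Wasf1*, a regulator of branched actin, as the one member at an unadjusted p below 0.05, at 48.2, 62.8, 129.7 and 159 CPM in dVenus+ against 367, 399.9, 449 and 289 in dVenus- cells.

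Glutathione genes lay on the lower side, with 11 of 15 tested members below 0, a median of -0.85 and 5 members at an unadjusted p below 0.05, all of them lower. Over all genes tested, 52.0% were above 0 and 4.46% had such a p on the lower side. The study lists glutathione synthesis for NS mice from the same libraries, so the direction of the list is not independent evidence. *Mgst3*, a microsomal glutathione transferase, was at no more than 0.476 CPM in dVenus+ and at 86.0, 47.7, 59.8 and 6.45 in dVenus- libraries. It met the count filter in dVenus- libraries only, so its sign follows from its entry. *Gstm7*, a cytosolic transferase, was found in 1 dVenus+ library, that of mouse 20, at 2.60 CPM, and at 8.59 to 140.3 in dVenus- libraries. *Gss*, which completes glutathione synthesis, gave 18.5, 0.238, 0.694 and 0 CPM against 377, 0.147, 23.1 and 54.1. The transferase *Gstm1* was on the other side, with 2.65 and a lower dVenus+ value in mouse 20 alone.

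Genes of energy metabolism and translation also lay on the lower side in 3 of 4 mice. Of 73 tested nuclear-encoded genes of the respiratory chain, 67 had a negative log2 fold change, 6 had an unadjusted p below 0.05 on that side and none on the other (8.22% of the list, against 8.67% of all genes tested), and the median was -0.96. The median difference within mice was -1.46, -1.25 and -1.41 in mice 18 to 20 and 0.33 in mouse 21. *Cox6b1*, a subunit of cytochrome oxidase, stood at 162, 80.7, 94.0 and 52.5 CPM in dVenus+ and at 546, 157, 486 and 258 in dVenus- cells, and *Uqcrc1* and *Atp5a1* had -2.06 ± 0.90 and -1.83 ± 0.74. Of 79 tested cytosolic ribosomal protein genes 67 were below 0 as well, with a median of -0.50, 2 at an unadjusted p below 0.05 (all lower, against 4.46% of all genes on that side), and mouse 21 again had the opposite sign at 0.77. Mouse 21 was also the one in which the dVenus+ library had the smaller share of reads outside genes, at 20.0% against 30.8%, whereas mice 18 to 20 had 35.7% to 44.3% against 16.4% to 20.0%, and the part of this share in the result was not tested. *Rps3* was at 19.1 to 144 CPM in dVenus+ and 199.7 to 1032 in dVenus- cells. *Rpl34* had no count in dVenus+ cells and 1.20 to 9.93 CPM in dVenus- cells, at least 10.7-fold lower in the former. Proteasome subunits had a median of -0.21 with 15 of 36 above 0.

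Potassium channel genes lay mostly on the higher side, with 35 of 39 tested members above 0, against 52.0% of all genes tested, and a median of 0.85. The count filter can be met by 1 cell class alone. Of the 92 listed genes, 49, 50, 39 and 43 had more than 3 counts in the dVenus+ libraries of mice 18 to 21. In their dVenus- libraries 35, 46, 32 and 46 did. The part of entry in these signs was not tested. At an unadjusted p below 0.05 were 4 on the higher side and 1 on the lower, 12.8% of the list against 8.67% of all genes tested. *Kcnd2*, which carries the A-type current of dendrites, was at 203, 114, 376 and 202 CPM in dVenus+ and at 11.1, 153, 71.7 and 27.6 in dVenus- cells, higher in 3 of 4 mice. *Kcnk3*, a leak channel, had 3.04 ± 1.38 at levels of no more than 9.64 CPM. Glutamate receptor genes had 12 of 19 above 0 with a median of 0.42, and those of GABA receptors 8 of 13 with 0.48, and neither list held a gene at an unadjusted p below 0.05.

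Peptide genes split by member. Beside *Penk* and *Scg2*, *Npy* was at 43.2, 25.7, 0 and 61.6 CPM in dVenus+ and 0, 6.78, 0.139 and 0 in dVenus- cells, while *Cck*, cholecystokinin, was on the other side at 21.0, 55.7, 38.5 and 6.28 against 217, 196, 147 and 237. Of the genes of vesicles and their fusion, the small GTPase *Rab3a* stood at 50.4 to 202 CPM in dVenus+ and 348 to 699.6 in dVenus- cells, and *Snap25* at 533 to 1177 against 1368 to 3088, neither with an overlap. *Bsn*, a scaffold of the active zone, had 3.12 ± 1.21. The list as a whole had a median of 0.01 with 14 of 27 above 0, and its median became -0.50 without mouse 18. Its summed level was lower in the dVenus+ library of every mouse, at 4554 to 5788 CPM against 6292 to 10088, unlike the median. Heat shock proteins and chaperones had a median of 0.10, with *Hspa2* and *Dnajc28* lower in 4 of 4 mice, dual specificity phosphatases had -0.36 and the integrated stress response genes 0.19.

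**Figure D4:**
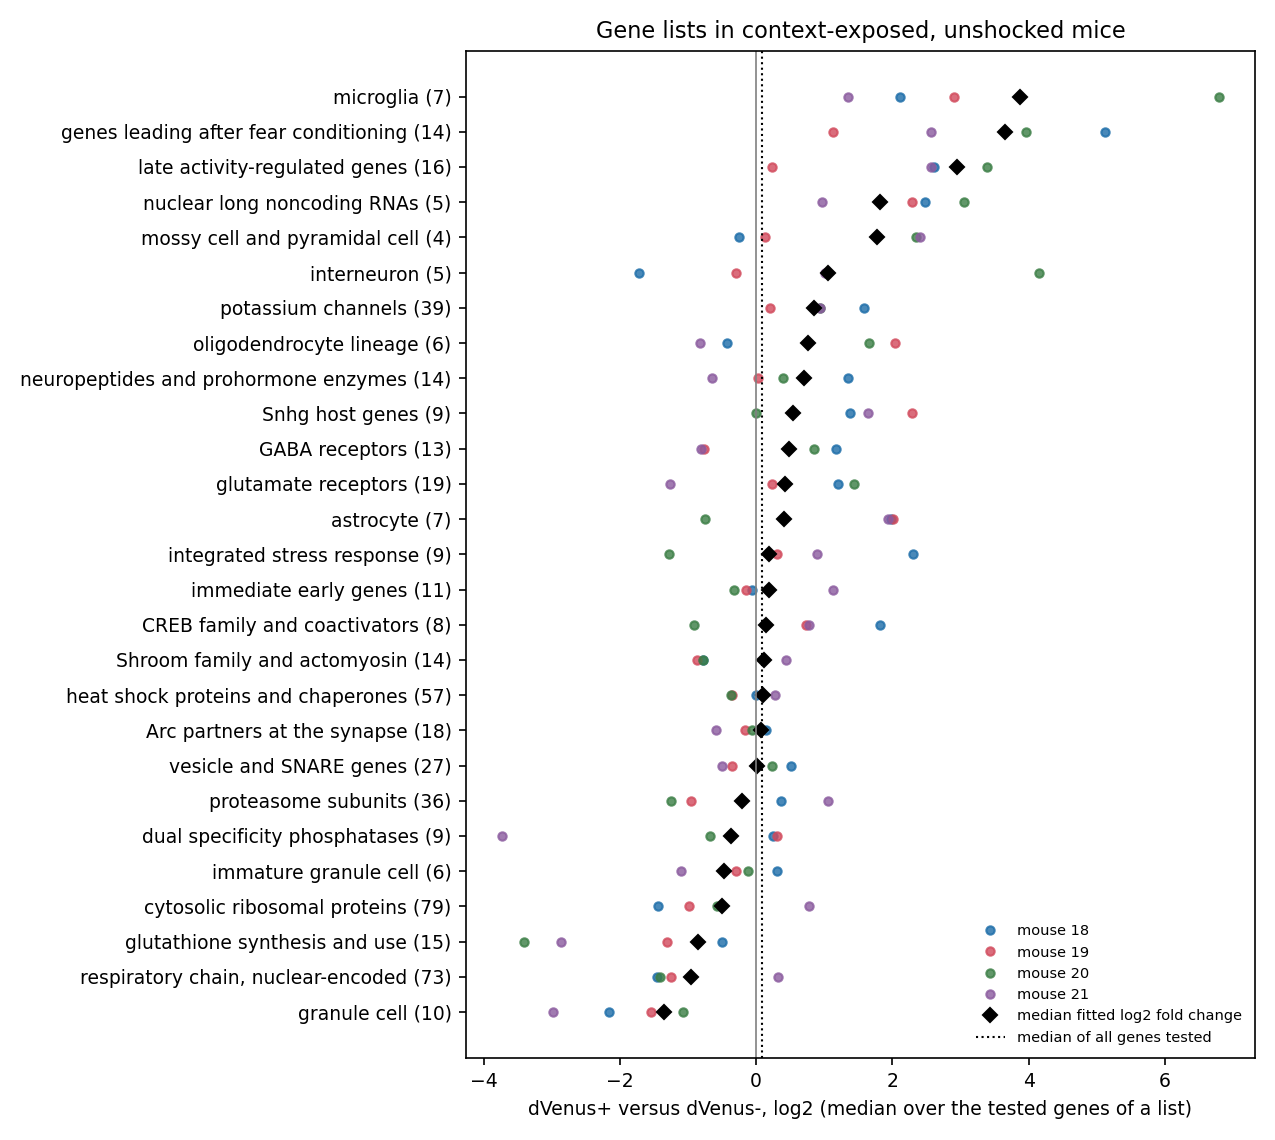
Median difference of dVenus+ against dVenus- cells on the log2 scale (x axis) over the tested genes of 27 lists (y axis, number of tested genes in brackets), as the median fitted log2 fold change (black diamonds) and as the median within each mouse (colored points). Microglial genes, with a median of 3.87, and the genes leading after fear conditioning, with 3.64, lie at one end and granule cell genes, with -1.35, at the other, and the dotted line is the median of all genes tested at 0.08.

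The cells are labelled as granule neurons of the dentate gyrus, and their markers were present in both classes. Of 11 granule cell markers, between 8 and 11 had more than 3 counts in each of the 8 libraries. *Prox1*, the transcription factor that sets granule cell identity, was counted in all of them, but at 8.04, 26.2, 26.2 and 10.1 CPM in dVenus+ against 193, 81.8, 168 and 79.5 in dVenus- cells (-2.94 ± 1.14, adjusted p = 0.51). *Calb1*, the calcium buffer of mature granule cells, was at 14.8, 102, 2.95 and 7.70 CPM against 388, 271, 679.8 and 212 (-4.52 ± 1.07, adjusted p = 0.107), and *Lct* was at 3.90 to 9.02 against 56.5 to 289. *Dsp* and *Pdzd2* were the members above 0 among the 10 tested, at 0.09 and 3.32, *Dsp* with either sign over the alternatives, and *Tdo2* had at most 0.332 CPM in any library. *C1ql2* and *C1ql3* had -1.50 and -1.12, *Neurod1* -1.75, *Dock10* -1.20 and *Camk2a* -0.84. The summed level of the list was lower in the dVenus+ library of every mouse, at 604 to 1157 CPM against 1637 to 2718, and the list had a median of -1.35.

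Markers of microglia, which were not sought, were also counted. Their summed level was higher in the dVenus+ library of all 4 mice, at 89.7, 491, 1637 and 1032 CPM in mice 18 to 21 against 16.0, 79.3, 6.89 and 629.6 in dVenus- libraries. The dVenus- library of mouse 21 thus held more of them than the dVenus+ libraries of mice 18 and 19. Of 15 markers 7 could be tested, all with a positive log2 fold change, a median of 3.87 that became 1.41 without mouse 20, and 3 at an unadjusted p below 0.05. Over all genes tested 52.0% had a positive log2 fold change and 4.21% such a p on the higher side. The count filter can be met through dVenus+ libraries alone, as it was by *C1qa*, with 148 to 989 counts there. *Fcrls*, counted only in the dVenus- library of mouse 21, did not enter, so the shared sign of the tested markers depends in part on entry. *C1qa*, of the complement component C1q, was at 17.0, 48.5, 172 and 98.0 CPM in dVenus+ and absent from dVenus- libraries other than that of mouse 21 with 9.30. *C1qb* gave 35.6, 0, 109.6 and 355 against 114 in mouse 21 and 0 in the others, and *Ctss*, a lysosomal protease, 0, 92.8, 107 and 146 against 56.7 in mouse 21 and at most 0.139. *C1qc*, *Csf1r*, *Cx3cr1* and *Tyrobp* had 2.92, 3.87, 2.28 and 1.62, the last with a value of -0.12 without mouse 20. Of the 8 untested markers, *Itgam* reached 136 CPM in the dVenus+ library of mouse 20. *Fcrls* was at 0 in all dVenus+ libraries, and *P2ry12* and *Tmem119* were at 0 in 3 and 2 of them. The part of such RNA in the dVenus+ profile was not tested, and fewer cells of a type and less RNA per cell cannot be told apart in pools of 10.

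Other cell types gave a less regular picture. Of 7 astrocyte markers, *Gfap* stood at 225, 13.1, 332 and 294 CPM in dVenus+ and 2.69, 2.50, 87.1 and 76.5 in dVenus- cells and *Aldh1l1* at 0.52 to 43.5 against at most 0.731, whereas the abundant transporter *Slc1a2* had 0.18 and the summed level of the list was higher in 2 of 4 mice. Oligodendrocyte markers were likewise higher in 2 mice, with sums of 924.5 to 1850 CPM in dVenus+ and 105 to 3276 in dVenus- cells. The interneuron marker *Gad1* was at 96.4, 139, 30.4 and 23.9 against 889.7, 172, 159.7 and 71.3, and the summed interneuron level was higher in dVenus+ cells of 1 mouse. Of the 5 tested interneuron markers 3 were above 0, with a median of 1.05, so that the median and the sum differ in direction. Mossy cell and pyramidal cell markers summed to 73.1 to 156 CPM in dVenus+ and 35.7 to 124 in dVenus- cells, immature granule cell markers to 232 to 346 and 376 to 1092, and the 4 endothelial genes to no more than 56.2 CPM.

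**Figure D5:**
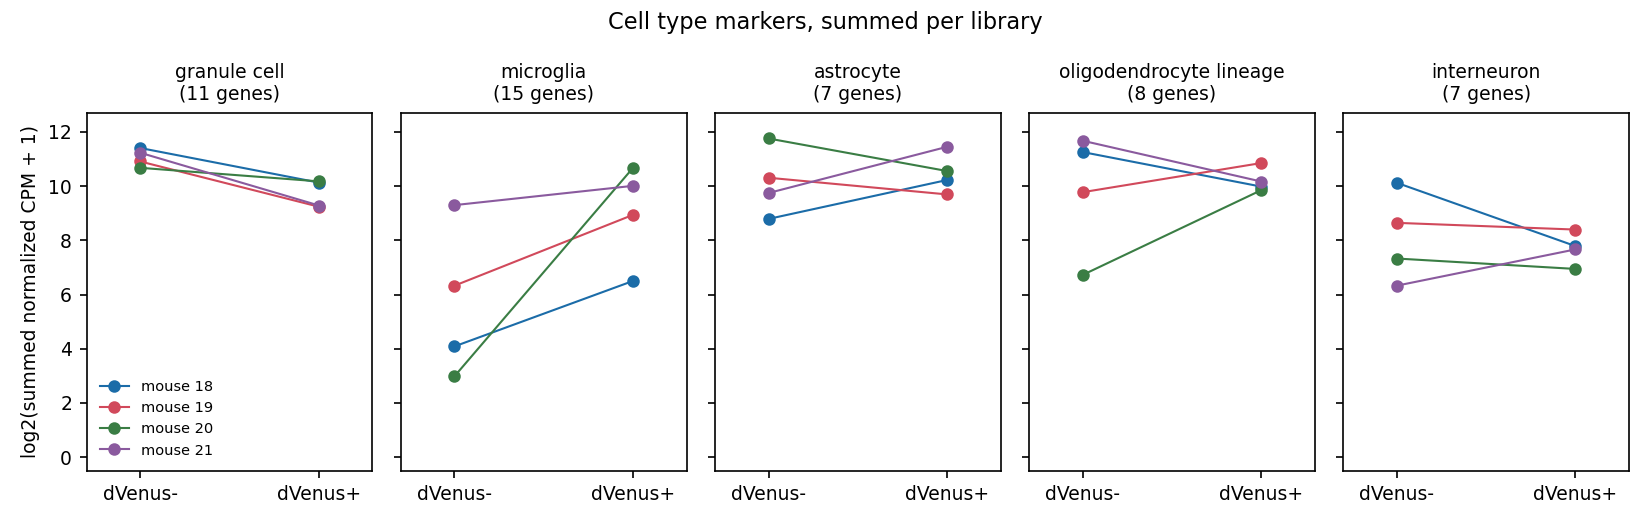
Log2 of the summed normalized CPM plus 1 (y axis) of the markers of 5 cell types in the dVenus- and dVenus+ library of each NS mouse (x axis), 1 line per mouse. Granule cell markers are lower and microglial markers higher in the dVenus+ library of all 4 mice, while the lines cross for astrocytes, oligodendrocytes and interneurons.

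Within a mouse, between 22.9% and 35.8% of the tested genes differed by more than 8-fold between the 2 libraries, and the genes with at most 3 counts came to between 7.63% and 20.9% of those tested in dVenus+ and between 7.90% and 30.7% in dVenus- libraries. In mouse 18, with the fewest genes in its dVenus- library, 59.0% of tested genes were higher in dVenus+ cells, and in mouse 21, 44.1%. By a rule set after the values were seen, 7 genes had at least 10 counts in all dVenus+ and at most 3 in all dVenus- libraries, and 13 had the reverse. The former were *Id1*, an inhibitor of helix-loop-helix factors, *Vasp*, *Lpin1*, *Pvrl3*, *Wwc2*, *1190002N15Rik* and *AI414108*. The latter included *Sae1*, *Mgst3*, *Rpl34*, the calcium channel subunit *Cacna2d3*, the cysteine desulfurase *Nfs1* and *Nkd1*, an inhibitor of Wnt signaling.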

How the data were processed

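RNA of 10 dVenus+ and 10 dVenus- cells from each of 4 NS mice had been sequenced. The deposited values are counts per gene, which the authors made by aligning single reads to mm10 (per the submitters' processing notes, TopHat2 2.0.13 and HTSeq 0.6.0) and left without normalization. Reads of this library type carry no strand and no molecular identifiers, so overlapping genes on opposite strands cannot be told apart and floors of 3 counts cover counting error only. Entries that name no gene were left out. A merged table of the series was not used.

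A gene was tested if 4 or more of the 8 NS libraries held 10 counts or more of it. The test was that of edgeR 4.0.16 in R 4.3.3 (TMM normalization, quasi-likelihood F test, two-sided, mouse as block), and p-values were adjusted after Benjamini-Hochberg. SE is the absolute log2 fold change divided by the root of F. A fitted fold change of a gene near 0 counts depends on the prior count. Normalized CPM are counts divided by the TMM-scaled library size. The fit of interactions required 10 counts in 3 of 38 libraries. The FC and HC values come from separate fits of those groups. Single measures were tested by exact sign flips over mice. Differences within mice use log2(CPM + 1). The fits were tested on simulated counts, where most changed genes were recovered at a low dispersion and none at the dispersion of these data. DESeq2 1.42.0 and limma 3.58.1 served as alternatives. The 2 libraries of a mouse come from 1 animal and form a pair, although the correlation of their deviations from the class means was only -0.0806 to 0.0942. Where nothing else is stated, p-values come from the edgeR fit of these 4 mice. They rest largely on a spread shared over all genes, with 31.7 prior against 3 residual degrees of freedom. They do not measure the spread of a single gene between the mice alone.

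Named are the called genes, the 8 higher and 8 lower genes of smallest p that moved alike in 4 of 4 mice, *Inhba*, *Nptx2*, *Dusp14* and *Sgk1*, list members with an unadjusted p below 0.05 (at most 3 for lists outside the activity programme), and granule cell and microglial markers. Further list members are given as values, chosen after these were seen. The comparison, its lists and its markers were chosen with earlier results of these data known. No list was tested as a set. Gene positions and promoter windows are those of RefSeq for GRCm38.p6, the build of mm10.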

Additional observations from a re-analysis of the deposited data

Results flagged for a closer look

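In some groups of 4 libraries 1 library lay apart from the other 3, by the gap to its nearest neighbor over the range of log2(CPM + 1). This was so in 23 of 152 groups looked at, where chance gives about 1 in 20 for normally distributed values. With 3 of the 4 libraries at 0 a gap arises by construction, as for *Inhba*, *Snhg1*, *Gstm7*, *Aldh1l1*, *C1qa*, *C1qb* and, among dVenus+ libraries, *Dnajc28*. In the dVenus- library of mouse 19, *Arc* at 3.54 CPM, *Inhba* at 3.83, *Nptx2* at 1.18, *Stat3* at 3.39, *Npy* at 6.78 and *Kcnk3* at 2.95 were high for that class, while *Dock10* at 24.5 and *Dnajc28* at 0.147 were low. In the dVenus- library of mouse 21, the microglial genes *C1qa* at 9.30, *C1qb* at 114, *Csf1r* at 78.9 and *Ctss* at 56.7 stood out on the high side, and so did *Nfx1* at 5.12, *Snhg1* at 11.1 and *Aldh1l1* at 0.731. In the dVenus- library of mouse 18 *Penk* was low at 0.134 and *Rps3* high at 1032, and in that of mouse 20 *Scg2* was low at 1.53 and *Actb* high at 5544. Among dVenus+ libraries, *Gstm7* at 2.60 and *Dnajc28* at 5.55 were high in mouse 20, *Gfap* was low in mouse 19 at 13.1 and *Ctss* was low in mouse 18 at 0.

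*Nfx1* and *Dnajc28* moved in opposite directions in every NS and every HC mouse. *Nfx1* was higher in dVenus+ cells of 4 of 4 NS mice and lower in 3 of 3 HC mice, a difference of 9.23 on the log2 scale (edgeR interaction, adjusted p = 0.302), and *Dnajc28* was lower in the former and higher in the latter, with -15.1 (adjusted p = 0.586). Neither difference was called. *Dnajc28* stood at 0, 0, 5.55 and 0 CPM in the dVenus+ libraries of NS mice 18 to 21, against 42.15, 0.147, 38.6 and 52.1 in their dVenus- libraries. In NS mouse 19 it had 0 counts in the dVenus+ and 1 in the dVenus- library. In HC mice it stood at 20.9 ± 35.6 CPM (SD) in dVenus+ and at 0 in dVenus- libraries, too low for the fit of that group.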

How the results depend on the processing

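The number of called genes, 4 (3 higher and 1 lower), changed with most settings. It was 0 (0 higher, 0 lower) when 10 counts were required in at least 6 libraries, in the fit of all 38 libraries and with the older quasi-likelihood method, 1 (1 higher, 0 lower) in the fit of the 14 NS and HC libraries (*Arc*) and without a count filter (*Malat1*), 11 (5 higher, 6 lower) with the size factors of DESeq2 and 671 (347 higher, 324 lower) with DESeq2. limma voom called 4 genes, 2 of them lower, and shared *Malat1* alone. With 1 mouse left out the count ran from 0 to 2, with 0 to 2 higher and 0 lower. The older method and the counts without *Rn45s* were chosen after seeing the data. The cause of these differences was not tested.

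The 2 libraries of a mouse are a pair, and without the replicate block 13 genes were called (5 higher, 8 lower), the same 4 included. The interaction of NS with HC mice gave 32 genes without the block, 1329 with DESeq2 and 0 to 2 with 1 mouse left out (2 without mouse 21), and that with FC mice gave 14 without the block and 1205 with DESeq2.

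*Dsp*, at 0.09, changed sign, with -0.0875 under the stricter filter, -0.24 with DESeq2, -0.0189 without a filter, -0.29 with the older method and -1.67 to 1.48 with 1 mouse left out, and *Tyrobp* had -0.121 to 4.47 with 1 mouse left out, negative without mouse 20. With 1 mouse left out, list medians ran from -0.0751 to 1.02 for immediate early genes, 0.20 to 1.504 for the CREB family, -0.77 to 0.21 for the Shroom and actomyosin genes, -0.50 to 0.28 for vesicle genes, 1.41 to 5.16 for microglia and 0.43 to 1.45 for potassium channels, while 132 of 138 list medians stayed within 1 SD. Of 942 values of named genes under alternatives, 850 kept direction and side of the threshold. Most named genes were not called in the main fit and kept their side by staying uncalled. The 33 values that lost a call all belonged to the called genes. Another 52 values gained a call under an alternative. *Dusp14* was called in 3 of 13 alternatives, *Inhba*, *Nptx2* and *Stat3* each in 1 of 13 and *Sgk1* in 1 of 12. *Malat1* lost its call in 7 of 14 alternatives, *Arc* in 7 of 13, *Snhg11* in 10 of 14 and *Shroom2* in 9 of 13. In 59.2% of the tested genes some library had 3 counts or fewer, so that the value of that library is near the limit of counting. The other class can still lie far above it, as for *Arc*.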
